A study of Mus musculus with 15 samples.

Results

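The insulin-like growth factor (IGF) axis was examined in RNA-Seq values of NMuMG cells, a mouse mammary epithelial line, and of lines derived from them. A set of 10 genes was followed, namely the binding proteins Igfbp2, Igfbp3, Igfbp4, Igfbp5, Igfbp6 and Igfbp7, the receptors Igf1r and Insr, and the receptor adaptors Irs1 and Irs2. They were matched by gene symbol and had been selected on their measured values around Igfbp4, which showed the largest drop of any gene when PCBP1 was depleted in the second dataset, so the values of that comparison are given for them as a description, with no test. Of the 10 genes, 8 were measured among the 13893 genes of the first dataset and 9 among the 15023 genes of the second. Igfbp2 was not analysed here, nor was Igfbp5 in the first dataset.

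The first dataset held 11 libraries, each from 1 RNA sample of 1 cell line, and every line carried the shRNA against PCBP1, an RNA-binding protein. The shPCBP1 group comprised the unaltered line and CT clones 1 to 3, which had received Cas9 without a gene-specific guide. Against it stood 3 clones with FAM3C KO, 3 with LIFR KO and a double KO of both genes, all made with CRISPR-Cas9 in the shPCBP1 line. FAM3C is a secreted factor and LIFR is the receptor of leukemia inhibitory factor. The second dataset held 2 shPCBP1 and 2 NMuMG samples, and the latter are untreated by their labels while the study describes cells with a scrambled shRNA. Since each knockout line is 1 clone, the difference between a knockout and its control cannot be told apart from differences between clones unless it exceeds their spread, and where nothing says that samples came from separate cultures, p-values measure only the spread between these samples, which may be technical. In the double KO and in LIFR KO clones 2 and 3, genes of high GC content were lower (Spearman correlation of the difference from shPCBP1 with GC content between -0.757 and -0.702, against -0.286 to 0.24 in the other 8 libraries). The same 3 libraries had 7.16% to 8.58% of their signal in mitochondrial genes, against 3.14% to 4.06% elsewhere. The results that rest on them are therefore given with and without them or by the values of the clones.

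IGF1 and IGF2 are small secreted growth factors that signal through the receptor tyrosine kinase encoded by Igf1r and, in part, through the insulin receptor encoded by Insr. The adaptors IRS1 and IRS2 dock on the activated receptors and recruit phosphoinositide 3-kinase, which leads to AKT. The IGF-binding proteins are secreted carriers that hold the ligands away from the receptor or release them near it. In the mammary gland the axis is known for its part in ductal growth, and Igfbp5 for its part in involution.

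The stretches before the transcription start of 3 genes are shown because Igfbp4 had the lowest level after knockdown relative to its control, Igfbp3 was higher, and Irs1 was lower and varied most between the lines of the first dataset. The sequences are from RefSeq (GRCm38.p6), and 9 of the 10 genes had an entry. Each run holds the 250 bases that end just before the start, read 5′ to 3′ on the strand of the gene. They lie at chr11:99040994-99041243 (+ strand) for Igfbp4, chr11:7213924-7214173 (- strand) for Igfbp3 and chr1:82291440-82291689 (- strand) for Irs1. Capitals mark matches to TATAAA.
Igfbp4: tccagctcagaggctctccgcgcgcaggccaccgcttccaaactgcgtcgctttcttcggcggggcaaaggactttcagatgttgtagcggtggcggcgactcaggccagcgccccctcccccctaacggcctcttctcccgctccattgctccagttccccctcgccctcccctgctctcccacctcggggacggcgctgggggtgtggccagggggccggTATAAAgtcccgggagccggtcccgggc
Igfbp3: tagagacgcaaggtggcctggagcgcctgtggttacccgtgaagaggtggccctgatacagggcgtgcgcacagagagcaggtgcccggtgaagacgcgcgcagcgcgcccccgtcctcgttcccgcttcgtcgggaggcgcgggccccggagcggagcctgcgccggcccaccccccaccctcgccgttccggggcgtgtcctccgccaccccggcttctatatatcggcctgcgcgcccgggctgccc
Irs1: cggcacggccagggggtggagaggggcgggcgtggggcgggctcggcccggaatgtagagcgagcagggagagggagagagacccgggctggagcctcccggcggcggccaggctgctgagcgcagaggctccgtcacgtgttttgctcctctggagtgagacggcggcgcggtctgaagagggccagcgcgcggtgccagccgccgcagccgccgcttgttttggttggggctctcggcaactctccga

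The windows searched ran from 250 bases before to 50 bases after the start, for TATAAA, the letters of a TATA box, and for TTCNNNGAA, the letters that STAT factors are known to recognise, on both strands and with no overlap between both kinds of match. In Igfbp4 a TATAAA match began 28 bases before the start, and Igfbp6 had one 148 bases before it. No window of the 9 genes held TTCNNNGAA. Over all 32851 promoters of the reference table, 13.6% held TATAAA and 8.30% held TTCNNNGAA. The Igfbp4, Igfbp3 and Irs1 windows had 71.3%, 71.7% and 71.3% GC and 27, 37 and 28 CpG dinucleotides, against a median of 52.7% GC and 7 CpG over the table.

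PCBP1 knockdown was assessed first through its target. Pcbp1 was at 287 and 312 CPM (the deposited unit, counts scaled to the size of each library) in NMuMG and at 14.1 and 14.2 CPM in shPCBP1 cells, a 21.2-fold lower mean.

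Igfbp4 encodes a secreted carrier that mostly restrains IGF signaling and that the protease pappalysin cleaves. The gene (ENSMUSG00000017493) lies on chromosome 11 of GRCm38 from 99041244 to 99054392 on the + strand. It was at 97.5 and 105 CPM in the NMuMG samples and at 0.287 and 0.0925 CPM in the shPCBP1 samples. The control samples were close to each other. The knockdown samples rested on few reads, 21 in both together as implied by the values (95% exact Poisson interval 13 to 32.1) against 11082 in both controls. The means were 101 ± 5.30 and 0.190 ± 0.137 CPM (SD, n = 2 each), a 534-fold lower value and a log2 fold change of -8.54 on the log2(CPM + 0.1) scale, the lowest of the 11384 genes whose mean over the samples reached 0.5 CPM. The size rested on the few reads of the knockdown samples, with a 1095-fold lower value (-9.04) without shPCBP1 sample 1 and a 353-fold lower value (-8.03) without sample 2. In bulk samples, fewer cells with the transcript and less transcript per cell cannot be told apart. The nearest measured gene on each side, taken by position after the values were seen, was Top2a, 17.1 kb before, at 126 CPM in shPCBP1 and 109 CPM in NMuMG, and Tns4, 11.3 kb after, at 3.21 and 0.302 CPM. Both were higher in shPCBP1 samples, opposite to Igfbp4.

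Igfbp4 was at a low level in each library of the first dataset, which has no control without knockdown, so these values alone show no fall. Its level was 0.374 CPM in the unaltered cells, while the CT clones, in order of their number, gave 0.256, 0.202 and 0.481 CPM. The FAM3C KO clones had 0.487, 0.200 and 0.307 CPM, the LIFR KO clones 0.376, 0.374 and 0.172 CPM, and the double KO 0.234 CPM. The groups overlapped throughout, and the values stood for 4 to 14 reads a library. FAM3C KO and LIFR KO differed from shPCBP1 by 0.00 and -0.07 in mean log2(CPM + 0.1) (exact permutation tests, two-sided, p = 0.971 and 0.886), so no difference was detectable at this depth. The tables were normalized separately, and levels are therefore not compared between them.

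Igfbp3, which encodes the main carrier of IGFs in serum, moved the other way on knockdown. The gene (ENSMUSG00000020427) lies on chromosome 11 from 7206086 to 7213923 on the - strand. Its values were 11.2 and 12.05 CPM in NMuMG and 59.9 and 61.9 CPM in shPCBP1, a 5.25-fold higher mean and a log2 fold change of 2.38. Both knockdown samples stood well above both controls. The nearest measured genes by position, also taken after the values were seen, were higher in shPCBP1 as well. Adcy1, 27.6 kb before, was at a mean of 30.0 CPM in shPCBP1 and 0.0267 CPM in NMuMG, and Tns3, 1218 kb after, at 156 and 97.5 CPM.

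The other binding proteins showed smaller or less certain differences. Igfbp5 (ENSMUSG00000026185, chromosome 1 from 72857932 to 72874884, - strand), known as a secreted protein of the involuting gland, was at 0.266 and 0.208 CPM in NMuMG, or 15 and 11 reads, and listed at 0.0001 CPM, the value for no reads, in both shPCBP1 samples. Set against a floor of 3 reads per library (0.0546 CPM), it was at least 4.33-fold lower, and these intervals and floors cover counting error only. Igfbp6 (ENSMUSG00000023046, chromosome 15 from 102144362 to 102149511, + strand), a carrier that prefers IGF2, was at 0.319 and 0.283 CPM in NMuMG and at 0.197 and 0.203 CPM in shPCBP1, on 33 and 22 reads in all. Neither gene reached a mean of 0.5 CPM. Igfbp7 (ENSMUSG00000036256, chromosome 5 from 77349240 to 77408041, - strand), a relative that binds IGFs weakly, was at 50.2 and 67.0 CPM in NMuMG and at 48.6 and 49.4 CPM in shPCBP1. Its log2 fold change of -0.24 was smaller than the distance of 0.42 between the NMuMG samples.

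The receptors differed by little on knockdown. Igf1r (ENSMUSG00000005533, chromosome 7 from 67952827 to 68233668, + strand) was at 71.3 and 73.5 CPM in NMuMG and at 80.2 and 80.1 CPM in shPCBP1 (log2 fold change 0.15). Insr (ENSMUSG00000005534, chromosome 8 from 3122061 to 3279617, - strand) was at 26.6 and 28.3 CPM and at 24.6 and 24.5 CPM, respectively (-0.16). In both genes the groups did not overlap, but neither did they in any of the 7 genes of the set that passed the filter. The separation therefore sets neither gene apart, and both differences were under 1.5-fold.

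The adaptors had log2 fold changes of opposite sign. Irs1 (ENSMUSG00000055980, chromosome 1 from 82233101 to 82291416, - strand) was at 34.1 and 35.5 CPM in NMuMG and at 13.2 CPM in both shPCBP1 samples, a 2.63-fold lower mean and a log2 fold change of -1.39. Its nearest measured genes by position were Rhbdd1, 25.04 kb after, at a mean of 37.4 CPM in shPCBP1 and 46.1 CPM in NMuMG, and Cul3, 1893 kb before, at 27.4 and 23.4 CPM. Irs2 (ENSMUSG00000038894, chromosome 8 from 10984681 to 11008458, - strand) was at 60.5 and 59.3 CPM in NMuMG and at 73.8 and 77.3 CPM in shPCBP1 (log2 fold change 0.33). Of the 7 genes that reached a mean of 0.5 CPM, Igfbp3, Igfbp4 and Irs1 differed by at least 1.5-fold. Since this comparison chose the genes, nothing is read from their number.

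**Figure D1:**
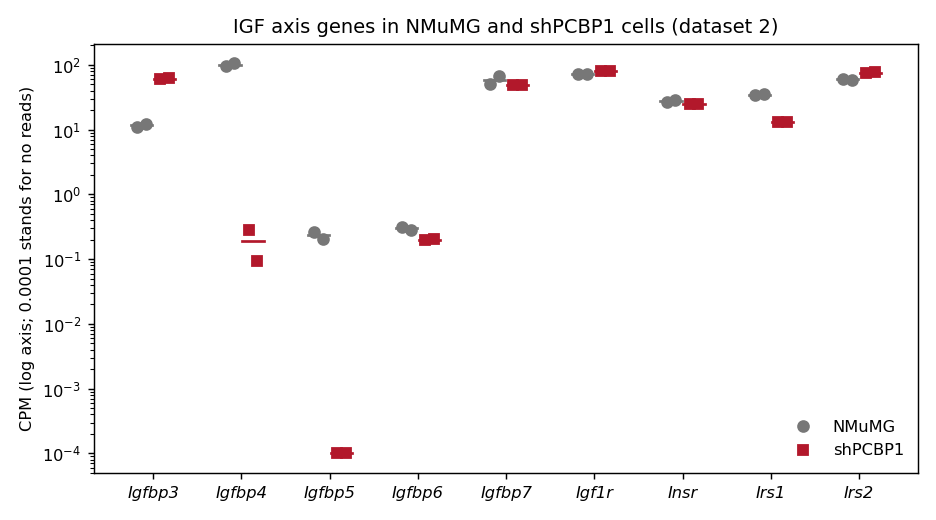
CPM (log axis) of the 9 measured genes in each NMuMG (circles) and shPCBP1 (squares) sample of the second dataset, with lines at the mean of 2. Igfbp4 was at 97.5 and 105 CPM in NMuMG and at 0.287 and 0.0925 CPM in shPCBP1, Igfbp3 stood above its controls at 59.9 and 61.9 CPM, and Igf1r, Insr, Igfbp7 and Irs2 lay close to theirs.

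The order of the levels was compared per length, as CPM per kb of the union of exons. In NMuMG, Igfbp7 was highest at 48.5 ± 9.82 CPM per kb (SD, n = 2), followed by Igfbp4 at 22.9 ± 1.201, Irs2 at 9.47 ± 0.136, Igf1r at 4.31 ± 0.0960, Irs1 at 3.81 ± 0.111, Igfbp3 at 3.71 ± 0.203 and Insr at 2.00 ± 0.0893 CPM per kb. Igfbp6 and Igfbp5 followed at 0.271 and 0.0394 CPM per kb. Irs1 and Igfbp3 did not differ beyond their spread. In shPCBP1, Igfbp7 remained highest at 40.5 ± 0.465 CPM per kb, Igfbp3 was next at 19.5 ± 0.463, and Igfbp4 was at 0.0429 ± 0.0311 CPM per kb. Igfbp4 thus went from rank 2 to rank 8 of 9, and Igfbp3 from rank 6 to rank 2. In the first dataset the 4 shPCBP1 lines had Igfbp7 highest at 109 ± 25.1 CPM per kb (SD, n = 4), Irs2 at 24.0 ± 2.15, Igfbp3 at 16.9 ± 5.55 and Igf1r at 12.7 ± 0.857. The range of Igfbp3 (10.1 to 23.5 CPM per kb) overlapped with those of Irs2 above it (21.2 to 25.9) and Igf1r below it (11.6 to 13.5), so the order of these genes is not settled by their spread.

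FAM3C KO was compared with shPCBP1 to ask which transcripts depend on FAM3C once PCBP1 is depleted. None of the 6 genes that passed the filter crossed the limma threshold of an adjusted p under 0.07 in a fit of the 3 groups, and 2, Irs1 and Igfbp3, had an unadjusted p under 0.05. Over all 12621 genes tested, 0.309% crossed the threshold and 1286 had an unadjusted p under 0.05. The transcript of Fam3c itself ranged from 26.4 to 42.9 CPM in the FAM3C KO clones and from 47.0 to 59.4 CPM in the shPCBP1 lines.

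Irs1 stood lowest relative to its control among the 6 genes. Its level in the unaltered shPCBP1 cells was 37.2 CPM, the CT clones, in order of their number, gave 31.5, 22.8 and 23.0 CPM, and the FAM3C KO clones gave 10.1, 16.1 and 6.95 CPM. Each FAM3C KO clone lay below each shPCBP1 line. The means were 28.6 ± 7.02 CPM (SD, n = 4) and 11.03 ± 4.64 CPM (SD, n = 3), with a log2 fold change of -1.42 (SE 0.417, limma adjusted p = 0.239). In an exact, two-sided permutation test p was 0.0286, which is as small as 4 lines against 3 can give. This was 1 of 24 such tests for the set, over 8 genes and 3 comparisons, and genes outside the set were tested in the same way. The limma result changed with the LIFR KO clones in the fit, which share the estimate of the spread, and the cause for Irs1 was not tested. Over all genes, the calls went from 39 to 1048 with the 2 groups fitted alone and to 359 without LIFR KO clone 3. For Irs1, 3 of 20 alternatives were past the threshold. The limma adjusted p was 0.026 with the FAM3C KO and shPCBP1 groups fitted alone and 0.0346 without LIFR KO clone 3. The remaining one left out LIFR KO clones 2 and 3, a fit with 1 LIFR KO library. The adjusted p was 0.145 after GC correction and reached 0.576 over the alternatives.

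Igf1r was higher in each FAM3C KO clone than in each shPCBP1 line, by a narrow margin. The unaltered cells gave 227.4 CPM, the CT clones 222.2, 195.1 and 209.6 CPM, and the FAM3C KO clones 239.4, 227.7 and 276.3 CPM, a log2 fold change of 0.21 (SE 0.110, limma adjusted p = 0.562). Groups thus did not overlap in 2 of the 6 genes, Irs1 and Igf1r, and in 22.7% of all genes tested. Igfbp3 was at 56.3, 73.6, 50.3 and 31.5 CPM in the shPCBP1 lines and at 65.5, 133.6 and 71.5 CPM in the FAM3C KO clones, with overlap through CT clone 1 (log2 fold change 0.76, SE 0.305, limma adjusted p = 0.417). FAM3C KO clone 2 alone stood far above the rest. Igfbp7, Insr and Irs2 had log2 fold changes of 0.24, 0.01 and -0.12 with SEs of 0.254, 0.111 and 0.257, and their groups overlapped.

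LIFR KO was compared with shPCBP1 to ask the same of LIFR. Again none of the 6 genes crossed the limma threshold and none separated the groups, against 6.47% of all genes called and 17.2% not overlapping. None had an unadjusted p under 0.05, against 4503 of the 12621 genes tested. The median log2 fold change of all genes in this comparison was -0.16. In LIFR KO clones 1 to 3 Lifr itself had 34.9, 29.3 and 14.6 CPM, and the shPCBP1 lines spanned 25.8 to 40.2 CPM, so its transcript level does not separate the labels. The 9 measured of 13 epithelial markers summed to 2160, 1261 and 2005 CPM in LIFR KO clones 1 to 3, below the shPCBP1 lines (2526 to 3240 CPM), with Krt8 at 218 to 470 against 582 to 818 CPM while Cdh1 overlapped (268 to 344 against 292 to 346 CPM). Their part in the LIFR KO differences was not tested.

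For Irs1 the LIFR KO clones 1 to 3 gave 25.7, 20.7 and 7.24 CPM. Clones 1 and 2 were near the lower shPCBP1 lines, while clone 3 was close to the lowest FAM3C KO clone. The log2 fold change was -0.83 (SE 0.417, limma adjusted p = 0.173), or -0.67 relative to the median of all genes. Irs2 was at 198.5, 97.4 and 83.8 CPM and Igfbp7 at 149.9, 69.5 and 78.2 CPM in the same clones. In both genes clone 1 lay within or above the range of the shPCBP1 lines (134.3 to 163.9 CPM for Irs2 and 102.0 to 168.0 CPM for Igfbp7), and clones 2 and 3, the libraries with the GC shift, lay below it.

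The exons of Igfbp7 and Irs2 have 58.8% and 56.6% GC, at percentiles 92.8 and 84.4 of the tested genes. Their log2 fold changes were -0.47 (SE 0.254) and -0.36 (SE 0.257) as deposited and -0.04 (SE 0.168) and -0.03 (SE 0.166) after correction for GC content. Without LIFR KO clone 1, Igfbp7 (-0.81, adjusted p = 0.00475), Irs2 (-0.74, adjusted p = 0.00246) and Irs1 (-1.18, adjusted p = 0.0439) crossed the limma threshold. Without clones 2 and 3, the values from clone 1 were 0.22, 0.39 and -0.12 and none crossed it. That fit has 1 LIFR KO library, which is assumed to vary like the lines of the other groups. The adjusted p over the alternatives spanned 0.00475 to 0.907 for Igfbp7, 0.00246 to 0.973 for Irs2 and 0.0439 to 0.948 for Irs1. Insr (56.3, 65.2 and 57.1 CPM) and Igf1r (247.1, 200.6 and 208.5 CPM) had log2 fold changes of 0.16 and 0.03 and overlapped with shPCBP1.

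Igfbp6 did not pass the filter. Its LIFR KO values of 0.215, 0.166 and 0.0858 CPM, or 4, 4 and 2 reads, lay below the shPCBP1 lines at 0.256 to 0.768 CPM (exact permutation test, two-sided, p = 0.0571). The FAM3C KO clones spanned 0.120 to 0.653 CPM. The exons of Igfbp6 have 60.7% GC, at percentile 96.8 of the tested genes. The values of 0.166 and 0.0858 CPM came from the LIFR KO clones with the GC shift. Without them the remaining LIFR KO clone, at 0.215 CPM on 4 reads, lay narrowly below the lowest shPCBP1 line. The part of the GC shift in these values was not tested.

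**Figure D2:**
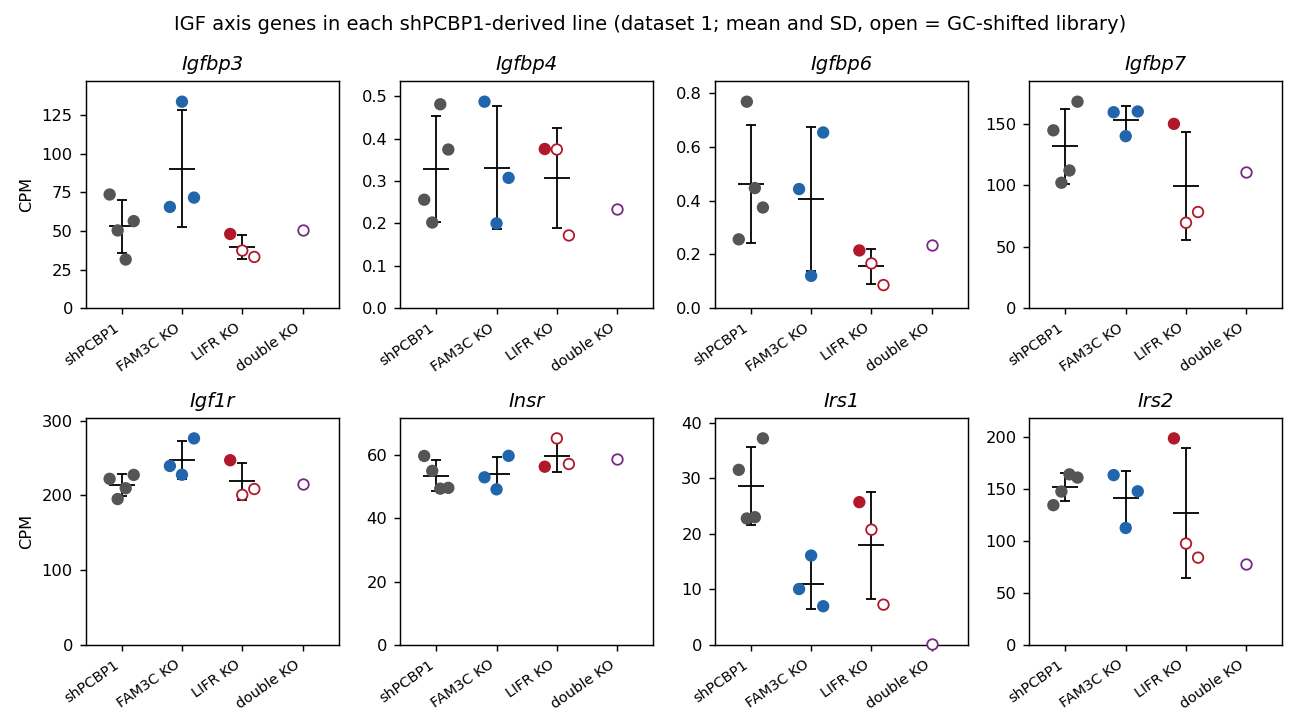
CPM of the 8 measured genes in each library of the first dataset by group, with the mean and SD where a group has several lines (open symbols mark the libraries with the GC shift). Irs1 lay lower in the FAM3C KO clones (6.95 to 16.1 CPM) than in the shPCBP1 lines (22.8 to 37.2 CPM), and the open symbols of Igfbp7 and Irs2 lay below LIFR KO clone 1.

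When the knockouts were compared with each other, limma called 1 of the 6 genes, against 8.28% of all genes. Igfbp3 was higher in each FAM3C KO clone (65.5, 133.6 and 71.5 CPM) than in each LIFR KO clone (48.0, 37.3 and 33.1 CPM). The log2 difference was 1.13 (SE 0.326, limma adjusted p = 0.0693), or 0.99 relative to the median of all genes of 0.14. The exact permutation p, two-sided, was 0.1, which is the minimum for 3 clones against 3. The adjusted p ranged from 0.0171 to 0.341 over the alternatives and was 0.341 with LIFR KO clones 2 and 3 left out, where the difference from the 1 remaining clone was 0.83 and the spread came from the other groups. It was lost without FAM3C KO clone 2, the clone with the highest Igfbp3 (log2 difference 0.81, adjusted p = 0.165), and also when any of FAM3C KO clones 1 and 3, LIFR KO clones 2 and 3, CT clones 1 and 2 or the unaltered line was left out. Irs1 missed the threshold in this comparison (-0.59, SE 0.446, adjusted p = 0.374).

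**Figure D3:**
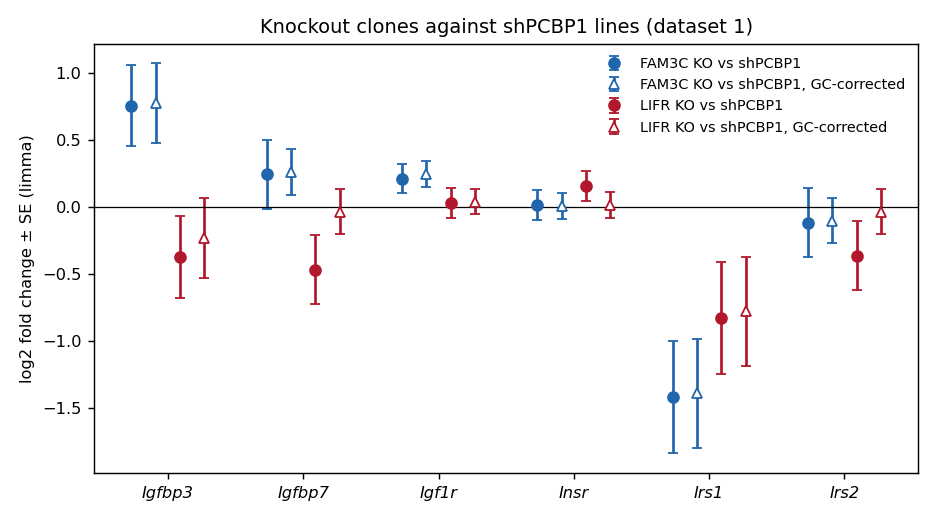
Log2 fold change ± SE (limma) of the 6 tested genes for FAM3C KO (blue) and LIFR KO (red) against shPCBP1, as deposited (filled circles) and after GC correction (open triangles). Irs1 had the lowest value in both comparisons, at -1.42 and -0.83, and the LIFR KO values of Igfbp7 and Irs2 moved to -0.04 and -0.03 with the correction.

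The double KO, a single library with no test, differed from all others in Irs1. Its Irs1 value of 0.115 CPM, the equivalent of 2.4 reads, compared with 6.95 CPM in the lowest of the 10 other libraries. In the same library Irs2 was at 77.5 CPM, below every other line, while Igf1r (215.5 CPM), Insr (58.8 CPM), Igfbp3 (50.6 CPM) and Igfbp7 (110.6 CPM) were no lower and no higher than the shPCBP1 lines spanned. The nearest measured gene after Irs1, Rhbdd1, 25.04 kb away and named by position after its value was seen, was at 53.3 CPM in the double KO and at a mean of 52.0 CPM in the shPCBP1 lines. The nearest before it, Cul3, 1893 kb away, was at 197 CPM in the double KO and at a mean of 122 CPM in the shPCBP1 lines. The epithelial markers of the double KO summed to 1858 CPM, also below the shPCBP1 lines, and their part in these values was not tested. The library carries the GC shift. The GC content of Irs1 (50.3%, percentile 53.5) is near the median of 49.7%, while that of Irs2 is higher (56.6%, percentile 84.4). The part of the shift in either value was not tested.

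Irs1 had the largest spread over the 11 libraries among the genes of the set that passed the filter (SD of log2 2.08). The genes most like it were Fndc4, Fzd3 and Sptb, with Pearson correlations of 0.953, 0.936 and 0.934 over the 11 libraries, given as a description. These points share the double KO, where Fndc4 was at 0.234 CPM, Fzd3 at 0.0468 CPM and Sptb at 3.79 CPM, and without it the correlations were 0.874, 0.467 and 0.777 over 10 libraries. In the FAM3C KO clones Fndc4 was at 0.961 to 2.60 CPM and in the shPCBP1 lines at 2.68 to 4.22 CPM.

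The rest of the pathway was taken from a list of 45 genes, ordered by role. In the second dataset 32 of them passed the filter and 8 changed by at least 1.5-fold with a limma adjusted p under 0.07, the threshold of the study, 5 higher and 3 lower. Over all genes 31.1% did so, 16.0% higher and 15.1% lower, and the median log2 fold change was 0.0083 for the list and 0.02 for all genes. By the limma adjusted p alone, 27 of the 32 and 9123 of all 11384 genes passed, so a small p-value by itself sets no gene apart here.

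Among ligands and their receptors, Igf2r, the receptor that clears IGF2, rose from 2.64 and 2.83 CPM in NMuMG to 29.1 and 28.4 CPM in shPCBP1 (log2 fold change 3.35, SE 0.0701, limma adjusted p = 1.36e-11). Igf2, the ligand it binds, was at 0.0178 and 0.0190 CPM, or 1 read each, in NMuMG and at 0.881 and 1.03 CPM in shPCBP1, a ratio of 52.1 with a 95% exact counting interval of 14.1 to 438. It did not reach a mean of 0.5 CPM there. Igf1 and Igfbp1 were not analysed here.

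Among the regulators of binding protein cleavage, Stc2, an inhibitor of pappalysins, fell from 6.99 and 6.51 CPM to 2.10 and 2.00 CPM (log2 fold change -1.67, SE 0.101, limma adjusted p = 4.86e-08). Its relative Stc1 (1.26 and 1.43 against 1.00 and 1.03 CPM) and the protease gene Htra1 (0.867 and 0.773 against 0.914 and 0.942 CPM) stayed under 1.5-fold. Pappa2 was at 0.0567 CPM or less in all 4 samples.

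Among the genes that act below the receptor, the adaptors Gab1 (1.4), Grb2 (0.59) and Sh2b1 (0.61) and the transcription factor Foxo6 (0.91) were higher by log2 fold change. The adaptors Shc1 (-1.12) and Grb14 (-0.64) were lower. Shc1 had a mean of 178 ± 1.76 CPM in NMuMG and 82.1 ± 1.27 CPM in shPCBP1 (SD, n = 2 each).

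**Figure D4:**
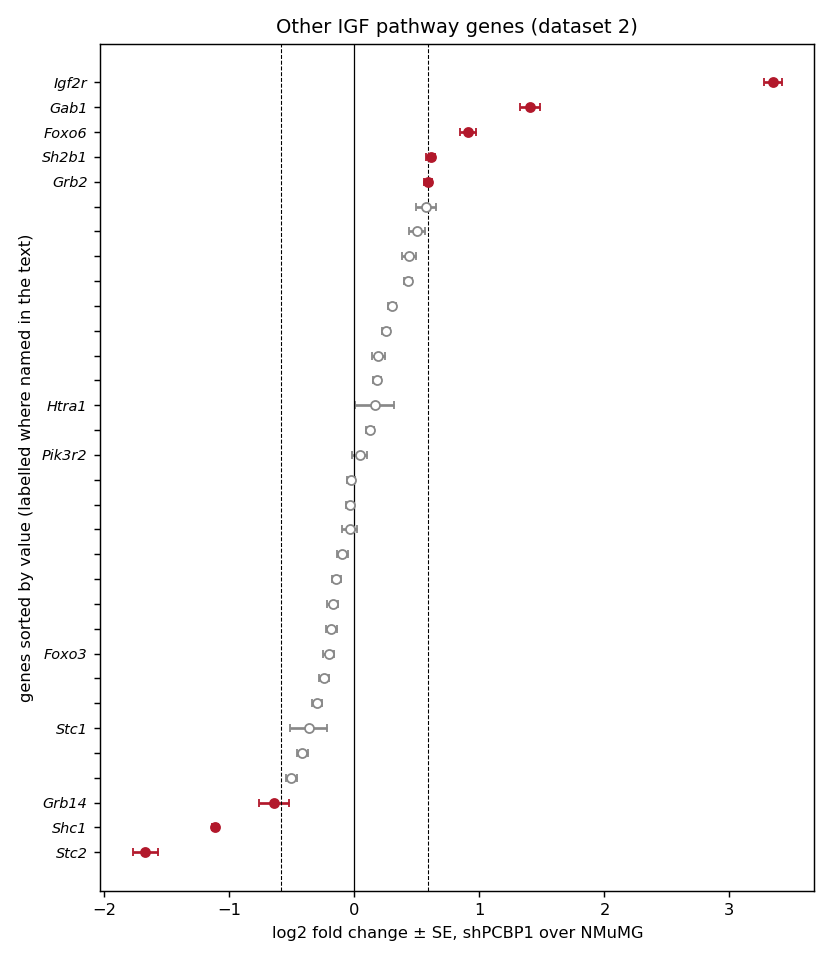
Log2 fold change ± SE (limma, shPCBP1 over NMuMG) of the 32 other pathway genes that passed the filter, sorted by value, with names for those given in the text (filled symbols passed an adjusted p under 0.07 and 1.5-fold, dashed lines). Igf2r stood apart at 3.35 and Stc2 was lowest at -1.67.

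A list of 9 genes with an IGFBP motif or of the related CCN family had 5 members tested in the second dataset. Of these 3 rose, namely Ccn4 (log2 fold change 4.22, from 8.005 to 150.2 CPM), Crim1 (0.98) and Ccn2 (0.66), and none fell, against 16.0% of all genes higher and 15.1% lower. The median of the 5 was 0.66, against 0.02 for all genes. None of the 5 tested in the first dataset crossed the limma threshold in any of the 3 comparisons. In FAM3C KO, LIFR KO and between the knockouts 0, 0 and 2 had an unadjusted p under 0.05, against 1286, 4503 and 3693 of all 12621 genes. Of 11 genes known as targets of FOXO factors, which AKT restrains, 9 were tested in the second dataset and 4 fell, namely Txnip (-1.88), Sesn3 (-1.33), Ccng2 (-1.29) and Cat (-1.28), while none rose, against the same shares of all genes. The median of the 9 was -0.51, against 0.02 for all genes.

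In the first dataset 37 genes of the pathway list were tested. None crossed the limma threshold in FAM3C KO, with a median log2 fold change of -0.10 against -0.01 for all genes. There 1 had an unadjusted p under 0.05, against 1286 of all 12621 genes. In LIFR KO 19 of the list had one, against 4503 of all genes. The threshold was crossed in LIFR KO by 3, all lower, or 8.11% of the list against 6.47% of all genes, with a median of -0.41 against -0.16. They were the transcription factor gene Foxo3 (-0.53, SE 0.129, limma adjusted p = 0.0529), Shc1 (-0.54, SE 0.138, limma adjusted p = 0.0595) and Pik3r2 (-0.89, SE 0.245, limma adjusted p = 0.0676), the last a subunit of phosphoinositide 3-kinase. Foxo3 had 33.8, 25.4 and 24.1 CPM in LIFR KO and 36.3 to 42.7 CPM in shPCBP1, and clones 2 and 3 stood well below clone 1. With those clones left out, the log2 values from clone 1 were -0.23, -0.30 and -0.11 for Foxo3, Shc1 and Pik3r2 and none crossed the threshold (limma adjusted p = 0.468, 0.544 and 0.741, the highest over the alternatives, with 1 LIFR KO library and the spread of the other groups). After GC correction they were -0.35, -0.36 and -0.34 and missed it as well (adjusted p = 0.0837, 0.107 and 0.0955). Between the knockouts none of the 37 crossed it, and 10 had an unadjusted p under 0.05, against 3693 of all 12621 genes.

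Igf2 was lower in each LIFR KO clone (0.215, 0.125 and 0.0858 CPM) than in each shPCBP1 line (0.579 to 3.31 CPM), while FAM3C KO clones ranged from 0.0384 CPM, the lowest value of that library, to 2.00 CPM. The log2 fold change of Igf2 in LIFR KO was -2.48 (SE 0.839, limma adjusted p = 0.0904, past the threshold in 1 of 19 alternatives). After GC correction it was -2.18 (SE 0.832, limma adjusted p = 0.155). In the exact permutation test, two-sided, p was 0.0286, the smallest that 4 lines against 3 can give. The LIFR KO values lie near the pseudocount of 0.1 CPM, so the size of the difference is uncertain, and clones 2 and 3 carry the GC shift. Igf2r was at 107.1, 82.6 and 57.0 CPM in LIFR KO and at 96.7 to 107.2 CPM in shPCBP1, and its groups overlapped through clone 1. Stc2 was at 1.93, 1.25 and 5.06 CPM in LIFR KO and 4.0 to 8.98 CPM in shPCBP1 (log2 fold change -1.53, limma adjusted p = 0.0985). With GC correction the value of Stc2 was -1.47 (limma adjusted p = 0.153). Pappa, which encodes pappalysin, did not pass the filter. It was at 0.0536 to 0.250 CPM in LIFR KO and 0.344 to 1.37 CPM in shPCBP1, while the FAM3C KO clones spanned 0.0400 to 1.19 CPM. Htra1 and Stc1 overlapped between LIFR KO and shPCBP1. Of the FOXO target list, 9 were tested. None crossed the threshold in FAM3C KO, against 0.309% of all genes (2 had an unadjusted p under 0.05, against 1286 of all 12621 genes). In LIFR KO 1 did, against 6.47% of all genes, namely Bcl6 (-0.65, SE 0.176, limma adjusted p = 0.0671). It was lost after GC correction (-0.58, adjusted p = 0.0864) and with LIFR KO clones 2 and 3 left out (-0.21, adjusted p = 0.682, with 1 LIFR KO library), and the adjusted p was past the threshold in 3 of 20 alternatives. Between the knockouts 1 did, against 8.28% of all genes, namely Fbxo32 (1.13, SE 0.291, limma adjusted p = 0.0531). Its values were 1.31 after GC correction (adjusted p = 0.0493) and 1.37 without LIFR KO clones 2 and 3 (adjusted p = 0.0467, with 1 LIFR KO library), and it was lost without LIFR KO clone 2 alone (0.96, adjusted p = 0.206), among 12 of the 20 alternatives.

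The labelled epithelial type was checked against markers. Epithelial Cdh1 was at 232 to 237 CPM in NMuMG and 149 CPM in shPCBP1 of the second dataset, and the 9 measured of 13 epithelial markers summed to 2989 to 3045 and 2801 to 2859 CPM. The 11 measured of 12 mesenchymal markers summed to 536 to 557 and 1320 to 1355 CPM. They were thus higher with the knockdown, as Igfbp3 was, while Igfbp4 was lower, and their part in those results was not tested. In the first dataset the mesenchymal markers summed to 1808 to 2054 CPM in shPCBP1, 2087 to 2248 CPM in FAM3C KO, 1309 to 1948 CPM in LIFR KO and 1846 CPM in the double KO, and the epithelial markers to 2045 to 3085 CPM in FAM3C KO. The immune list had 1 gene measured there, Cd68, at 8.38 to 10.1 CPM in shPCBP1, 5.64 to 10.3 CPM in FAM3C KO and 4.29 to 10.8 CPM in LIFR KO. Fibroblast markers (2 measured of 5) summed to at most 0.547 CPM in the second dataset and 1.497 CPM in the first, and the basal (4 of 5), endothelial (3 of 3), immune (3 of 3) and adipocyte (2 of 3) lists measured in the second dataset to at most 0.266, 0.341, 1.68 and 0.251 CPM.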

How the data were processed

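RNA was sequenced from 15 libraries. Per the labels and the methods, the authors aligned the reads with Bowtie2 to GRCm38 in Partek Flow, quantified annotated genes, ran DESeq2 and deposited CPM (counts scaled to library size), with a small value in place of 0. The second table also holds mean CPM and fold changes by the authors, which were not used. Bowtie2 does not split reads across introns, which can lower the counts of genes with short exons. From the smallest steps of the values, 16031859 to 46901675 reads lay behind the libraries of the first dataset and 53033517 to 56497175 behind those of the second. The share of low values (1 to 100 reads) that were whole multiples of the step, within 0.1 steps, was 0.807 to 0.944, too low for a count test.

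Values were transformed to log2(CPM + 0.1), which understates changes of low genes, and a gene was kept where its mean reached 0.5 CPM. The fits used limma (version 3.58.1, R version 4.3.3), with its trend of variance on level, over the 3 groups of the first dataset in 1 model without the double KO. Benjamini-Hochberg adjustment ran over all genes tested, with a threshold of 0.07, and at least 1.5-fold was added in the second dataset. Single genes were tested by exact permutation of mean log2 values, two-sided. The second dataset with 2 samples against 2 cannot go below p = 0.333 by permutation. Coordinates and exon lengths were from GENCODE M21 (GRCm38). The fits were tested on simulated data. Figures were drawn with matplotlib 3.10.9.

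The genes and lists were chosen with earlier results of these data known. Some genes of the pathway list are not reported here and were taken out of its counts after the values were seen. Named were the 10 genes of the set, fixed ligands, receptors and cleavage regulators, genes of the pathway list past the threshold, the targeted genes, and the 3 genes most like the one with the largest spread. Alternatives were other pseudocounts, filters, scalings and thresholds, the groups fitted alone, a replicate block, a GC correction (loess, span 0.3), longest transcripts for lengths, and leaving out each library. Leaving out both LIFR KO clones with the GC shift was chosen after seeing the data. Clone and replicate numbers did not pair the samples by the check below.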

Additional observations from a re-analysis of the deposited data

Results flagged for a closer look

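Igfbp3 differed between FAM3C KO and LIFR KO when the knockouts were tested against each other (limma adjusted p = 0.0693), by 1.13 on the log2 scale. The call was lost with LIFR KO clones 2 and 3 left out (0.83, limma adjusted p = 0.341), a fit with 1 LIFR KO library that takes its spread from the other groups, and over the alternatives the adjusted p ranged from 0.0171 to 0.341.

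Stc1, an inhibitor of pappalysins, was at 5.53 CPM in the double KO, a single library outside the comparisons, above every shPCBP1 line (1.72 to 3.86 CPM). LIFR KO clone 3 (4.97 CPM) and FAM3C KO clones 1 and 2 (5.09 and 4.92 CPM) were also above those lines.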

How the results depend on the processing

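Depth limits Igfbp6 throughout, Igfbp4 in every line with the shRNA and Igfbp5, which rest on at most 19 implied reads a library, and the small groups limit the rest. It also limits Igf2 and Pappa in the LIFR KO clones, at values near the pseudocount of 0.1 CPM. The cause of the changes below was not tested, except that fewer libraries enter some fits. In FAM3C KO against shPCBP1, genes past the threshold went from 39 to 21 with a mean of at least 1 CPM, 1048 with the groups fitted alone, 128 with GC correction and 1060 without LIFR KO clones 2 and 3, and 1 of the selected genes (Irs1) passed in the settings with 1048 and 1060. In LIFR KO against shPCBP1, 816 genes became 359 at an adjusted p under 0.05, 481 with median-ratio rescaling, 35 with the groups fitted alone, 296 with GC correction and 281 without clones 2 and 3, and the count of 3 in the pathway list became 0, 0, 0, 1 and 0 in these settings and 1 with quantile normalization. The 1 gene with GC correction was none of those 3 but Pik3r3 (-0.53, limma adjusted p = 0.0557, against 0.149 without it), named after its values were seen. Between the knockouts, 1045 genes became 587 at 0.05, 0 with the groups fitted alone (limma, 2228 at an unadjusted p under 0.05) and 678 with GC correction. There the call of Igfbp3, the 1 selected gene, went to 0 at 0.05, without a filter, with median-ratio rescaling, with quantile normalization, with the groups fitted alone, with GC correction and without clones 2 and 3.

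Clone numbers did not pair the samples (correlations of same-numbered deviations of -0.188 to 0.154 for the clones and 0.0512 for the NMuMG and shPCBP1 samples). With the replicate block, which leaves out the unaltered line, 15, 10 and 0 genes passed in FAM3C KO, LIFR KO and between the knockouts, and 7, 7 and 0 with GC correction and the block, and 0 selected and 0 pathway genes passed in each of these fits. Between the knockouts limma gave 3000 genes with the block and 2687 with both at an unadjusted p under 0.05. Under the block Insr in FAM3C KO turned to -0.0198 (-0.0207 also with GC correction), and with GC correction and the block Igfbp7 and Insr in LIFR KO turned to 0.0805 and -0.012. Irs2 between the knockouts turned to -0.0669 with GC correction and to -0.0678 with the block added. Without LIFR KO clones 2 and 3, an alternative chosen after seeing the data that leaves 1 LIFR KO library, assumed to vary like the other groups, Igfbp7 and Irs2 in LIFR KO turned to 0.22 and 0.39, and Igf1r and Irs2 between the knockouts to -0.000806 and -0.51.

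Leaving out each library in turn gave 3 to 359, 5 to 7234 and 1 to 6673 genes in FAM3C KO, LIFR KO and between the knockouts, 0 to 1, 0 to 3 and 0 to 4 selected genes, and 0, 0 to 24 and 0 to 22 pathway genes. The highest counts came without LIFR KO clone 3 for FAM3C KO and without LIFR KO clone 1 for the others. Directions turned in Insr (-0.0618 to 0.0788) and Irs2 (-0.23 to 0.0385) for FAM3C KO and Igf1r (-0.0598 to 0.0903) for LIFR KO. In the second dataset 6 to 10 pathway genes passed against 8.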
